A study of Mus musculus with 8 samples.

Results

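Megakaryocyte progenitors (MkPs) that passed a set of surface gates were compared with MkPs that failed them. The MkPs were the cells that the authors annotated as such from RNA alone, and they numbered 1266 of 22602 annotated cells. A cell passed when its normalized antibody score was below 0.71 for Sca1, above 1 for CD117, above 0.45 for CD150 and above 0.6 for CD41. All 4 gates were passed by 718 MkPs (56.7%, exact Clopper-Pearson 95% interval 53.9 to 59.5%), and 548 failed at least 1 of them. The passing and failing cells were thus chosen by the measured scores of these 4 proteins, and the levels of the 4 are given only as a description.

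The cells came from the bone marrow of young (2 to 3 months) and aged (20 to 24 months) FlkSwitch mice on the C57Bl/6 background, in which Flk2-driven Cre acts on the mT/mG reporter. A cell that has never passed through a Flk2+ stage stays Tomato+ (Tom+), whereas a cell with Flk2+ ancestry becomes permanently GFP+, and the split used here is the authors' call on Egfp RNA. All groups carry both alleles, male mice were used, and the 8 libraries were made from lineage- c-Kit+ cells sorted as CD150- and CD150+ fractions from each age. The sort thus used the same CD117 and CD150 proteins that reappear among the gates. CITE-seq counted the RNA of each cell together with antibody-derived tags (ADTs) for 35 surface proteins, of which 31 lie outside the gates.

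Each cell carries 1 of 16 group names, a letter A to D with a number, and no label ties a name to a library, an animal or a sorted fraction. Each name holds cells of a single age, numbers 1 and 2 being young and 3 and 4 aged. All cells of an age were therefore treated as 1 sample, and no test over animals was possible and no p-value is given. Differences were taken within each cell group that held at least 10 passing and 10 failing MkPs, which left A2, B2, C2 and D2 in young and A4, B4, C4 and D4 in aged mice. The SDs below are over those 4 groups. They describe the spread between these groups, which may be technical. Antibody depth ranged from 320 to 13618 ADT counts per young MkP and from 0 to 13645 per aged MkP.

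MkPs are the committed precursors of megakaryocytes, the large marrow cells that shed platelets. By convention they are isolated as cells that lack Sca1, an antigen of stem cells and multipotent progenitors, and that carry the stem cell factor receptor CD117 (c-Kit), the SLAM receptor CD150 and CD41, the integrin alpha chain that pairs with CD61 to form the platelet fibrinogen receptor. Megakaryocytes and erythrocytes share an upstream progenitor, the MEP, and HSCs are also known to feed the platelet lineage by a more direct route.

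The gates took more of the aged MkPs than of the young MkPs. In aged mice 536 of 866 MkPs passed (61.9%, 58.6 to 65.1%), and in young mice 182 of 400 passed (45.5%, 40.5 to 50.5%). These intervals are exact 95% intervals and cover counting error only. Among aged cells, 296 of 402 Tom+ MkPs passed (73.6%, 69.0 to 77.9%) against 240 of 464 GFP+ MkPs (51.7%, 47.1 to 56.4%). Among young cells, 168 of 368 GFP+ MkPs passed (45.7%, 40.5 to 50.9%), and the 32 Tom+ MkPs were too few to place, with 14 passing (43.8%, 26.4 to 62.3%). The shares also depended on antibody depth, since after thinning each cell to 300 ADT counts 19.5% of young and 44.8% of aged MkPs passed.

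These shares differed between the letters of the cell groups. Of the young GFP+ MkPs, 33.9% passed in A2 and 44.8% in B2, against 69.8% in C2 and 61.3% in D2. The aged GFP+ MkPs passed at 53.7% (A4), 53.8% (B4), 73.0% (C4) and 61.2% (D4). Aged exceeded young GFP+ MkPs by 19.8 points for letter A and by 9.05 points for B, whereas for C and D the values were 3.16 and -0.0658 points, so the letters A and B held most of the difference between ages. For aged Tom+ MkPs the shares were 70.7% (A4), 79.6% (B4), 76.3% (C4) and 66.7% (D4), above the GFP+ MkPs of the same cell group in each of the 4 groups. The counting intervals of Tom+ and GFP+ MkPs did not overlap in A4 and B4, and they did overlap in C4 and D4. Of the groups with few MkPs, A3 had 6 of 27 passing and B3 had 7 of 37, and C3 and D3 held 7 and 9 MkPs in all.

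**Figure D1:**
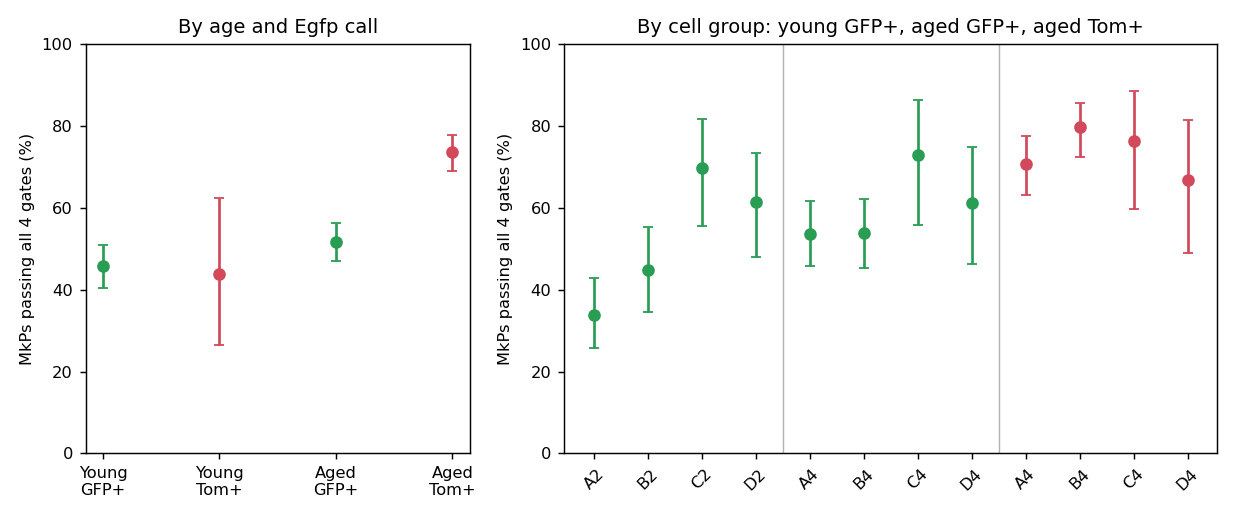
Share of RNA-annotated MkPs passing all 4 surface gates, in percent, by age and Egfp call (left) and by cell group (right), with points for the share and bars for the exact 95% counting interval. Aged Tom+ MkPs sit at 66.7 to 79.6% in the 4 groups, while young GFP+ MkPs span 33.9 to 69.8%.

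CD48, a SLAM-family receptor that most HSCs lack and most committed progenitors carry, divided the aged cells further. The authors' CD48 call placed every MkP with a CD48 score of 1.116 or more in the CD48+ class and every MkP of 1.113 or less in the CD48- class. In aged mice 73.0% of CD48- MkPs passed against 50.9% of CD48+ MkPs. The order held within each Egfp call, with 66.0% of CD48- against 48.0% of CD48+ cells among GFP+ MkPs, and 75.1% against 66.7% among Tom+ MkPs, although the counting intervals of the Tom+ pair overlapped. The aged passing cells held 55.2% Tom+ cells and the failing cells 32.1%. In young mice the corresponding values were 7.69 and 8.26%.

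CD41 was the gate most often failed. It was missed by 165 young MkPs (41.3%) and by 172 aged MkPs (19.9%). The CD150 gate was missed by 61 young (15.3%) and 110 aged (12.7%) MkPs, and the Sca1 gate by 46 young (11.5%) and 112 aged (12.9%) MkPs. CD117, the antigen on which the cells had been enriched and sorted, was missed by 1 MkP in each age, and the aged one held no ADT counts at all. That aged cell was GFP+, scored 0 for every protein and was kept among the failing MkPs. With the CD41 gate left out, 74% of young and 75.5% of aged MkPs passed the other 3 gates, so the pooled shares were then alike at both ages. CD41 was missed by 41.3% of young GFP+, 30.4% of aged GFP+ and 7.71% of aged Tom+ MkPs. The parts of age, Egfp call and cell group in this were not tested. Most failing cells missed a single gate, 76.1% of them in young and 82.4% in aged mice.

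Aged GFP+ and Tom+ MkPs missed the gates in different proportions. CD41 was missed by 30.4% of aged GFP+ MkPs (26.2 to 34.8%) and by 7.71% of Tom+ MkPs (5.30 to 10.8%). CD150 was missed by 19.8% of GFP+ (16.3 to 23.8%) and 4.48% of Tom+ MkPs (2.67 to 6.98%). Sca1 ran the other way, missed by 9.27% of GFP+ (6.79 to 12.3%) and 17.2% of Tom+ MkPs (13.6 to 21.2%), and it accounted for 65.1% of the failing Tom+ cells.

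Cells lay close to the thresholds on both sides. In aged MkPs the passing cell nearest the CD41 threshold had a score of 0.6001 and the nearest failing cell 0.5968, for CD150 these scores were 0.453 and 0.4487, and for Sca1 0.7097 and 0.7111. The failing cells near an edge were a minority, since moving every threshold outwards by 0.05 would admit 34 of the 218 failing young MkPs and 58 of the 330 failing aged MkPs. Behind the CD41 scores stood a median of 5 counts in aged cells below the gate and 30 above it, and of 4 and 26 counts in young cells.

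Outside the gates, CD9 and CD61 separated passing from failing MkPs most. CD9 is a tetraspanin abundant on megakaryocytes and platelets, and CD61 is the integrin beta chain that partners CD41. In aged mice the mean CD9 score was 1.35, 1.38, 1.55 and 1.47 in passing cells of A4, B4, C4 and D4, and 1.18, 1.12, 1.21 and 1.17 in failing cells of the same groups. In young mice it was 1.53, 1.53, 1.65 and 1.60 in passing cells of A2, B2, C2 and D2, and 1.16, 1.25, 1.18 and 1.16 in failing cells. The passing means lay above every failing mean at both ages. The difference, passing minus failing, was 0.264 ± 0.073 in aged and 0.387 ± 0.086 in young MkPs (SD, n = 4 cell groups). Counts show the size on a plainer scale, with a median of 172 CD9 counts per passing and 60 per failing aged MkP, and 399.5 and 61.5 in young MkPs.

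CD61 behaved likewise. Its mean score in aged passing cells was 1.03, 1.06, 1.12 and 1.096 in A4, B4, C4 and D4, against 0.852, 0.805, 0.787 and 0.817 in failing cells. In young passing cells it was 0.791, 0.825, 1.02 and 0.978 in A2, B2, C2 and D2, against 0.567, 0.527, 0.698 and 0.711 in failing cells. Passing exceeded failing by 0.262 ± 0.065 in aged and 0.277 ± 0.041 in young MkPs (SD, n = 4). A randomly drawn passing MkP had the higher CD9 score than a failing one with a frequency of 0.756 in aged and 0.881 in young mice, and the higher CD61 score with frequencies of 0.742 and 0.800, so the distributions overlapped.

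**Figure D2:**
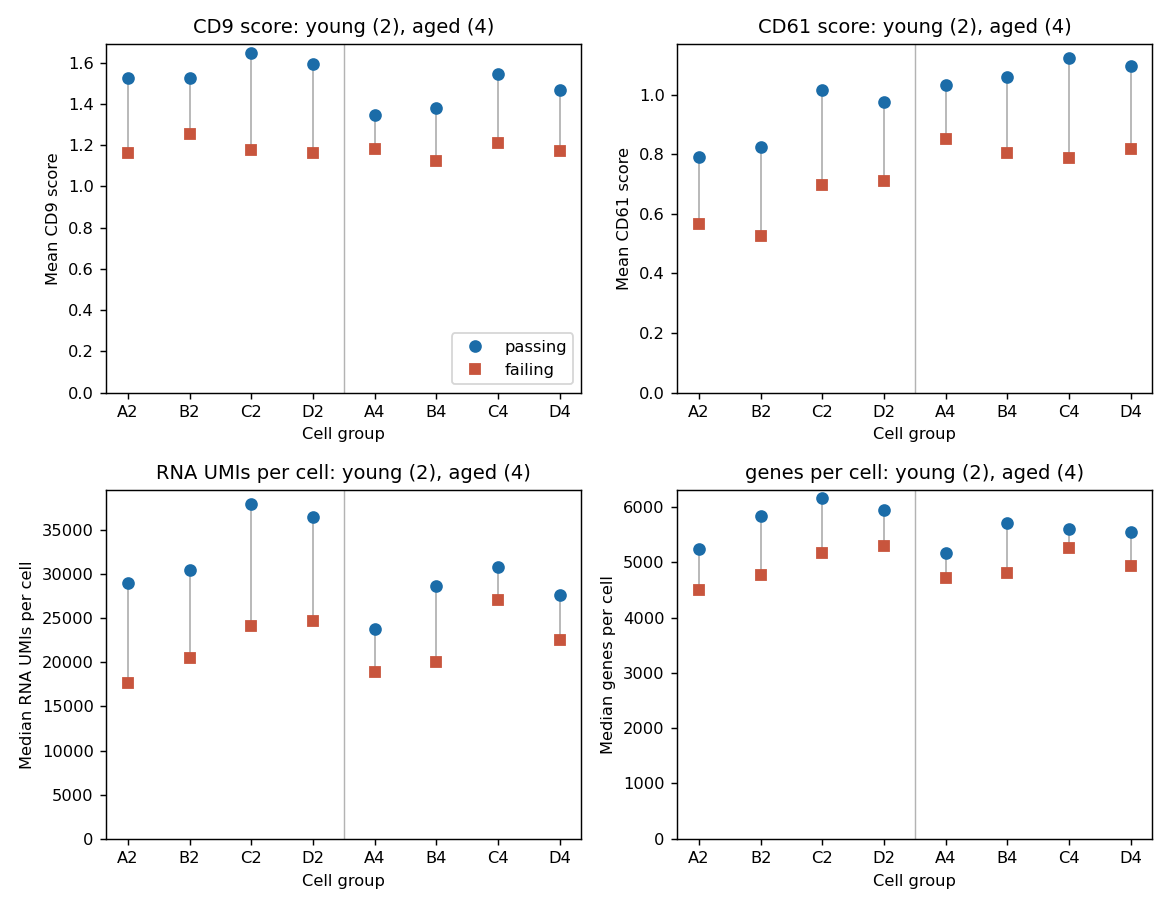
Mean CD9 and CD61 scores and median RNA UMIs and genes per cell for passing (circles) and failing (squares) MkPs in each cell group used, young groups A2 to D2 on the left of each panel and aged groups A4 to D4 on the right. Passing MkPs are above failing MkPs in all 8 groups in every panel.

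Of the 31 proteins in aged MkPs, 7 (22.6%) were higher in passing cells in all 4 groups, 7 (22.6%) were lower in all 4, together 14 (45.2%), and 17 had mixed signs. Without D4, 9 were higher and 13 lower in the remaining 3 groups, over which a shared sign is easier to keep than over 4. Higher beside CD9 and CD61 were CD38, an ectoenzyme that consumes NAD (0.110 ± 0.055), CD105 or endoglin, a TGF-beta co-receptor used to subdivide myeloerythroid progenitors (0.092 ± 0.032), and the adhesion molecule CD54 or ICAM-1 (0.030 ± 0.017). The remaining members were the tetraspanin CD63 (0.029 ± 0.033) and the cytokine receptor CD135 (0.018 ± 0.015), both with a median of 1 count or fewer per cell. CD63 varied between groups by more than its mean difference.

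Lower in passing aged MkPs were CD48 (-0.098 ± 0.051), the antigen-presenting molecule MHCII (-0.080 ± 0.046), the sialomucin CD34 of early progenitors (-0.045 ± 0.025), the macrophage antigen F4/80 (-0.044 ± 0.003) and the Fc receptors CD16/32 of granulocyte-monocyte progenitors (-0.041 ± 0.019). CD86 and CX3CR1 completed the list at -0.040 ± 0.020 and -0.013 ± 0.006. The mean CD48 score of passing cells was 1.02, 1.03, 0.986 and 1.00 in A4, B4, C4 and D4, against 1.12, 1.16, 1.01 and 1.13 in failing cells, so C4 showed the smallest gap. The weight of the failing MkP without ADT counts in these means was not tested. CD62P or P-selectin, the alpha-granule protein that activated platelets expose, had a difference of -0.012 ± 0.019 with mixed signs.

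In young MkPs 5 of the 31 proteins (16.1%) were higher in passing cells in all 4 groups and 10 (32.3%) were lower in all 4, together 15 (48.4%). Beside CD9 and CD61 the higher proteins were CD105 (0.076 ± 0.016), CD38 (0.051 ± 0.050) and the hyaluronan receptor CD44 (0.050 ± 0.017). The lower proteins were led by the granulocyte antigen Gr1 (-0.089 ± 0.056), the interleukin-7 receptor chain CD127 (-0.089 ± 0.051), the B cell receptor component CD79b (-0.088 ± 0.044), CD62P (-0.075 ± 0.032) and CD86 (-0.058 ± 0.036). CD48 did not separate young cells, at 0.011 ± 0.042 with mixed signs and means of 1.28 to 1.37 in passing and 1.22 to 1.40 in failing cells. CD34 was likewise mixed, at -0.007 ± 0.026.

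By role, the 4 platelet proteins had a median difference of 0.146 in aged and 0.144 in young MkPs, beside medians of -0.002 and -0.022 over all 31. Of these 4, CD9 and CD61 were higher in every group at both ages, CD63 was higher in every aged group and mixed in young groups, and CD62P was lower in every young group. The 7 stem and progenitor proteins split evenly in aged MkPs, with 3 higher (CD38, CD105 and CD135), 3 lower (CD48, CD34 and CD16/32) and CD27 mixed. Of the 5 myeloid and dendritic proteins, 4 were lower in passing cells in aged and 4 in young MkPs, with a median of -0.040 and -0.043. Over all 31 proteins the lower share was 22.6% in aged and 32.3% in young MkPs.

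Antigens of mature blood cells were sparse in passing and failing cells alike. The 8 antigens of the lineage cocktail together made up 1.39 to 1.91% of the ADT counts of passing and 2.11 to 2.38% of those of failing aged MkPs over the 4 groups, and 1.49 to 2.09% and 2.99 to 3.95% in young MkPs. Of the 8, 7 had a median of at most 3 counts per cell in each of these kinds of cells, and CD3, CD4 and CD11b had a median of 0 in all. Gr1 was the exception, at medians of 18 counts in both passing and failing young MkPs, and of 14 and 15 in aged MkPs. None of the 8 kept 1 sign in all aged groups, and Gr1 alone did so in young groups. The lineage antigens therefore took a larger share of counts in failing cells, and their part in the protein differences was not tested. A share also depends on the other proteins. CD9 took 34.7% of the counts of passing and 14.6% of failing young MkPs, and 23.7 and 13.5% in aged MkPs.

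**Figure D3:**
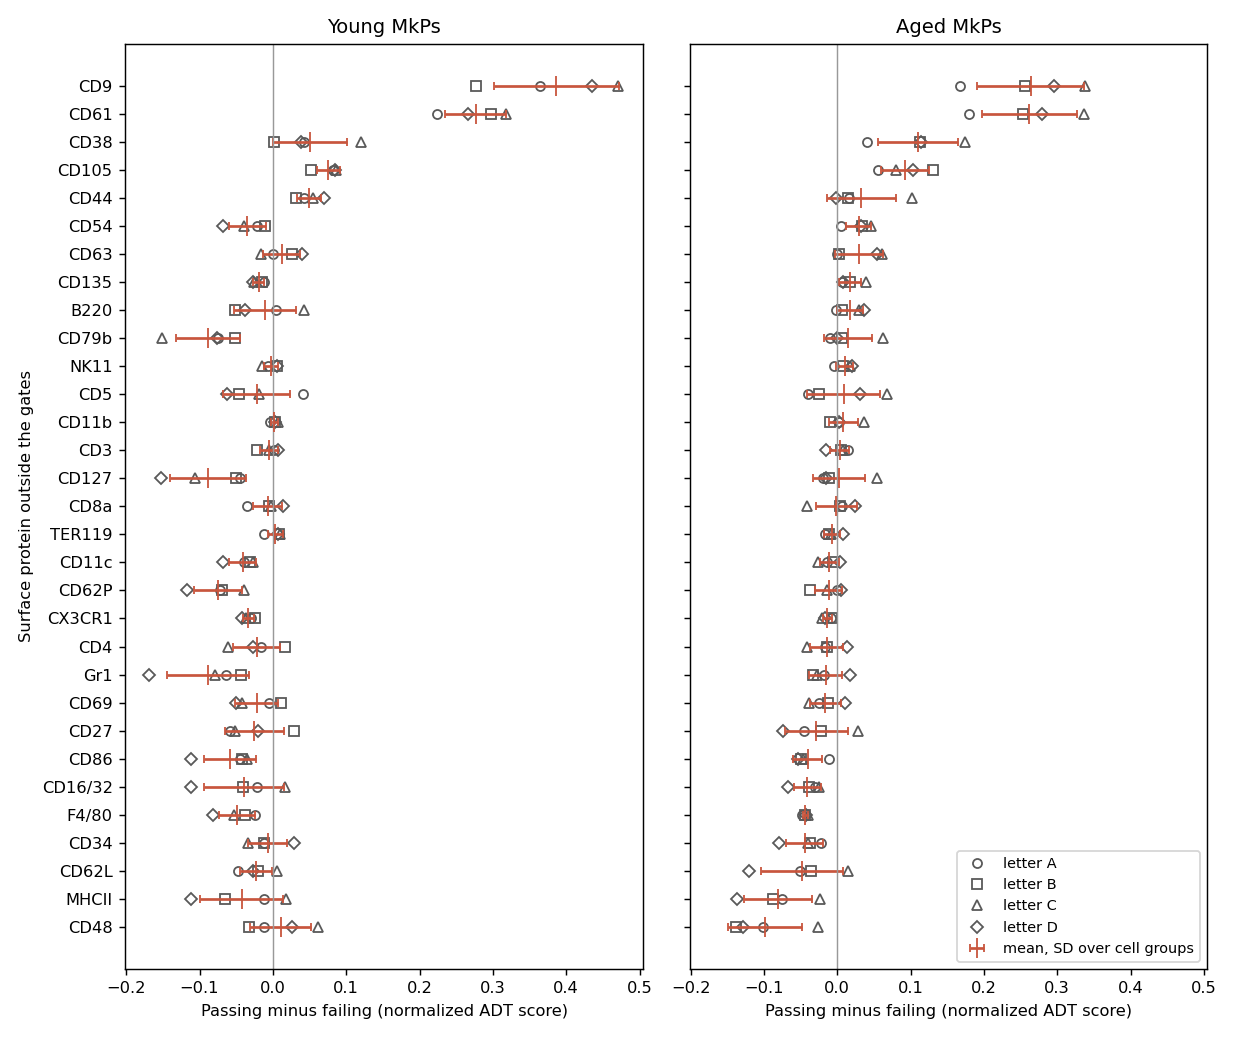
Difference in mean normalized ADT score, passing minus failing MkPs, for the 31 proteins outside the gates in young (left) and aged (right) mice, with an open symbol for each cell group by its letter and a red bar for the mean and SD over the 4 groups. CD9 and CD61 stand furthest to the right at both ages, and CD48 is lower in all 4 groups of aged MkPs and mixed in young MkPs.

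The score divides by the geometric mean of all 35 antibodies in a cell, so a protein can shift because others do. Only the directions of CD9 and CD61 (higher) and of CX3CR1 (lower) held in all 4 young groups under the deposited score and each of 4 other scalings. In aged MkPs those were CD9, CD61, CD38 and CD135 (higher) and CD34 and F4/80 (lower). That list pools Egfp calls. Within aged GFP+ MkPs, over 4 groups (3 after thinning), only CD9 and CD61 (higher) held under all scalings. Within aged Tom+ MkPs, over 3 groups, CD9 (higher) and CD48, CD86 and MHCII (lower) did. A shared sign is easier to keep over fewer groups, so the GFP+ and Tom+ lists are not comparable. As log2 counts per 1000, CD54 in aged and CD38 and CD44 in young MkPs were lower in all 4 groups, and CD105 in young MkPs was mixed. The balance of higher to lower proteins itself moved, from 7 and 7 in aged MkPs under the deposited score to 4 and 14 as log2 counts per 1000, 5 and 13 after thinning each cell to 300 ADT counts (4 failing aged MkPs were too shallow), and 10 and 2 as unscaled log2 counts. For young MkPs the same settings gave 5 and 10, 2 and 24, 3 and 16, and 6 and 3. As log2 counts per 1000, the median difference of all 31 proteins was -0.14 in aged and -0.43 in young MkPs. Relative to that shift, CD54 in aged MkPs (-0.14) stood at the median and CD105 in young MkPs (-0.17) stood above it.

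Since Tom+ cells were more frequent among passing aged MkPs, the comparison was repeated within each Egfp call. In aged GFP+ MkPs 6 of 31 proteins (19.4%) were higher in passing cells in all 4 groups and 1 (3.23%) was lower, together 7 (22.6%). CD9 differed by 0.372 ± 0.078 and CD61 by 0.313 ± 0.116, and CD48 by -0.056 ± 0.081 with mixed signs. CD48 was higher in passing GFP+ cells in C4 alone (0.047), where 10 failing cells were compared. The failing aged GFP+ cells include the MkP without ADT counts, and its weight in these values was not tested. In aged Tom+ MkPs, where 3 cell groups had enough cells, 3 proteins (9.68%) were higher and 5 (16.1%) lower, together 8 (25.8%). Unrelated signs agree more often over 3 groups than over 4, so the Tom+ and GFP+ counts are not comparable. The Tom+ count was not tested against such agreement. There CD9 differed by 0.148 ± 0.044 and CD61 by 0.104 ± 0.072, each smaller than in GFP+ cells of the same cell group in A4, B4 and D4, a contrast that was not tested. CD48 was lower in passing Tom+ cells in all 3 groups (-0.048 ± 0.011), as was MHCII (-0.089 ± 0.031).

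Failing Tom+ MkPs kept high CD61 levels. These cells had mean CD61 scores of 1.11, 0.996 and 1.02 in A4, B4 and D4, against 0.688, 0.713 and 0.691 in failing GFP+ MkPs of those groups. Passing Tom+ MkPs stood at 1.13, 1.13 and 1.17 and passing GFP+ MkPs at 0.9003, 0.943 and 1.04. In A4 and B4, but not in D4, failing Tom+ MkPs thus carried a higher mean CD61 score than passing GFP+ MkPs. For young GFP+ MkPs, which were most of the young cells, 5 proteins (16.1%) were higher and 11 (35.5%) lower, together 16 (51.6%).

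The comparison within each CD48 class left CD9 and CD61 higher in passing cells of every group used. In aged CD48+ MkPs, with 3 usable cell groups, 9 proteins (29.0%) were higher in passing cells and 9 (29.0%) lower, together 18 (58.1%). A shared sign is easier to keep over 3 groups than over 4, so this count is not comparable with that of CD48- cells. CD9 differed by 0.335 ± 0.078 and CD61 by 0.273 ± 0.067. In aged CD48- MkPs 5 proteins (16.1%) were higher in all 4 groups and 1 (3.23%) was lower, together 6 (19.4%), with CD9 at 0.216 ± 0.116 and CD61 at 0.124 ± 0.111. CD38 and CD105 kept 1 sign in CD48+ cells (0.105 ± 0.025 and 0.099 ± 0.047) and were mixed in CD48- cells.

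Failing cells were not of 1 kind, and their proteins and Egfp calls differed with the gate they missed. The 118 aged MkPs that failed CD41 alone were 17.8% Tom+ and 84.7% CD48+, against 55.2% and 41.4% of passing cells. Set against passing cells of the same groups, they differed by -0.444 ± 0.031 in CD61, -0.282 ± 0.043 in CD9, -0.158 ± 0.054 in CD38 and -0.137 ± 0.052 in CD105, and by 0.214 ± 0.026 in CD48 (SD, n = 4 groups). The 114 young MkPs that failed CD41 alone differed by -0.375 ± 0.124 in CD61 and -0.426 ± 0.064 in CD9, and CD48 was mixed at 0.034 ± 0.042.

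The 76 aged MkPs that failed CD150 alone were also mostly GFP+, with 17.1% Tom+ cells. Their CD9 was above that of passing cells of both Egfp calls together, by 0.149 ± 0.041 in A4 and B4, the only groups with enough of them. Passing GFP+ MkPs of A4 and B4 had mean CD9 scores of 1.47 and 1.48, and passing Tom+ MkPs 1.26 and 1.32. CD48 was higher by 0.145 ± 0.075 and the costimulatory receptor CD27 by 0.102 ± 0.063, while CD61 differed by -0.062 ± 0.018. Over all 76 cells of this kind and all passing cells, without regard to cell group, the mean CD61 was 0.882 against 1.05 and the mean CD9 1.47 against 1.40. Of the 31 proteins in young MkPs of this kind, 19 were higher in both A2 and B2 and 0 lower, and so few groups often share a sign. These young cells differed from passing cells by 0.004 ± 0.003 in CD9 and 0.037 ± 0.029 in CD61 in A2 and B2. Over all 37 of these young cells the signs were the other way, with means of 1.51 against 1.58 for CD9 and 0.841 against 0.897 for CD61.

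The 78 aged MkPs that failed Sca1 alone were 76.9% Tom+ and 24.4% CD48+. Their CD61 was above that of passing cells, by 0.092 ± 0.010 in A4 and B4, whereas CD9 was lower by -0.237 in both groups. MHCII was higher by 0.108 ± 0.047 and CD54 by 0.081 ± 0.016, and CD48 was lower by -0.085 ± 0.013. Among aged failing cells CD61 was thus lowest where CD41 was missed, CD9 was low where CD41 or Sca1 was missed, and CD48 was high where CD41 or CD150 was missed. These contrasts were not made within an Egfp call, and 55.2% of passing cells were Tom+. Among aged passing cells the mean CD48 was 0.903 in Tom+ and 1.185 in GFP+ MkPs, the mean CD61 1.137 and 0.943, and the mean CD9 1.313 and 1.505. The part of the Tom+ share in these contrasts was not tested. Only 14 young MkPs failed Sca1 alone, with a mean CD61 of 0.922 and CD9 of 1.32.

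**Figure D4:**
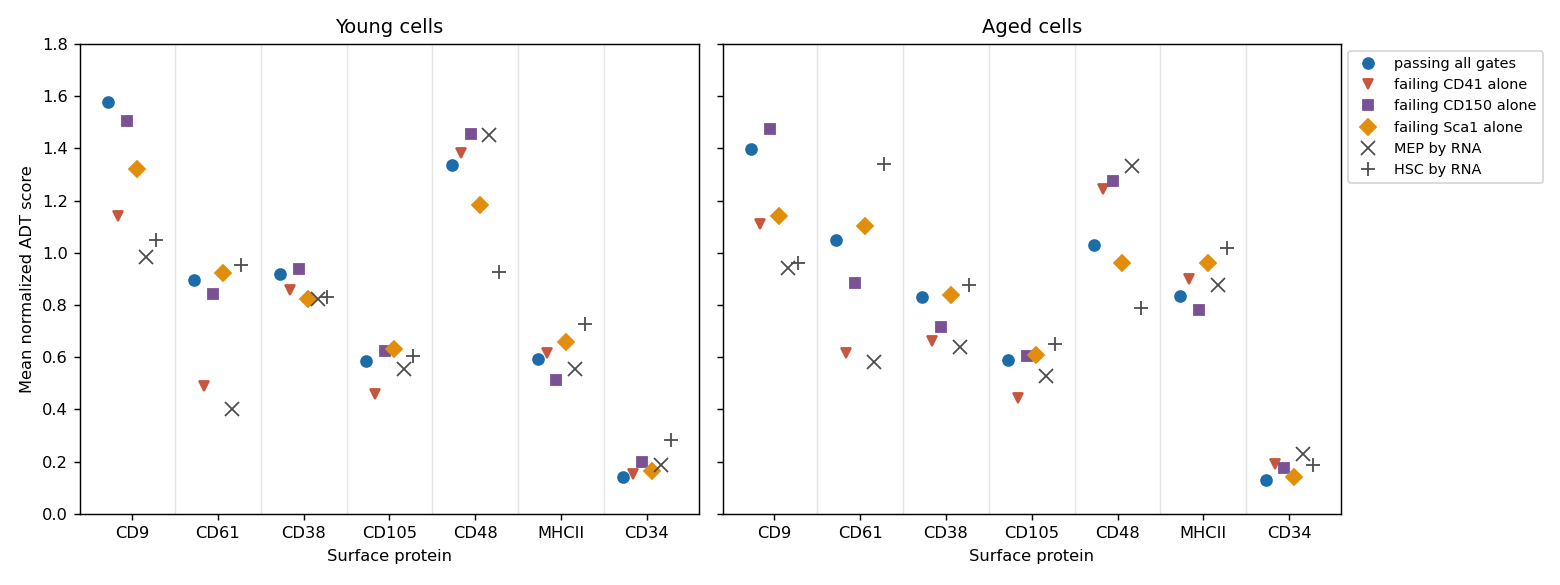
Mean normalized ADT score of 7 proteins in young (left) and aged (right) MkPs that passed all gates or failed 1 named gate alone, with MEPs and HSCs as annotated from RNA for reference. CD41-failing MkPs have CD61 means of 0.491 (young) and 0.615 (aged), near MEPs at 0.402 and 0.581, and the aged Sca1-failing MkPs have a CD61 mean of 1.101, between passing MkPs at 1.05 and HSCs at 1.34. Of the aged Sca1-failing MkPs 76.9% were Tom+, and aged passing Tom+ MkPs alone had a CD61 mean of 1.137. The young HSCs are only 17 cells.

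Over the 31 proteins, the mean profile of the CD41-failing MkPs lay nearer to MEPs than to passing MkPs. The Euclidean distance between mean scores of the 118 aged CD41-failing MkPs and the 224 aged MEPs was 0.293, against 0.632 to the passing MkPs. In young mice the same distances were 0.262 and 0.649. The aged Sca1-failing MkPs were closer to passing MkPs (0.318) than to HSCs (0.464), which were their nearest class, and the aged CD150-failing MkPs were likewise closer to passing MkPs (0.436) than to MEPs (0.687). The distances are descriptions without a test. CD41 itself was not among the 31 proteins, whereas its partner CD61 was. By the same gates 21 of 224 aged MEPs (9.38%) and 13 of 308 young MEPs (4.22%) would pass.

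Passing MkPs also held more RNA, a measure that the gates did not use. The median number of unique RNA molecules (UMIs) per young MkP was 28974.5, 30421.5, 37879 and 36486 in passing cells of A2, B2, C2 and D2, and 17647, 20504, 24136 and 24655 in failing cells. Every passing median exceeded every failing median, and within groups the ratio was 1.54-fold (log2 0.63 ± 0.07, SD, n = 4). In aged MkPs the medians were 23819, 28696, 30784.5 and 27646.5 in passing cells of A4, B4, C4 and D4, and 18890, 20016.5, 27083 and 22569 in failing cells. Passing cells were higher in each aged group, by 1.26-fold (log2 0.33 ± 0.14), although the failing median of C4 exceeded the passing median of A4. The aged difference was present in GFP+ cells (log2 0.37 ± 0.14, 4 groups) and in Tom+ cells (log2 0.30 ± 0.13, 3 groups).

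Genes detected per cell followed the UMIs. Passing MkPs had a median of 5772.5 genes in young and 5479 in aged mice, and failing MkPs 4673 and 4760.5, which gave log2 ratios of 0.24 ± 0.05 and 0.16 ± 0.07 within cell groups. When cells were first sorted into 4 bins of like cell number by RNA UMIs, the mean log2 ratio of genes was close to 0, at -0.0012 in young and -0.0022 in aged mice, with bins of both signs at each age (-0.07 to 0.03 in young and -0.02 to 0.01 in aged mice). The mitochondrial share of RNA differed little, with medians of 2.98% in passing and 2.90% in failing young MkPs and of 2.92% and 2.93% in aged MkPs.

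Antibody depth moved with the gates as well. Passing MkPs had a median of 1550 ADT counts in young and 1202 in aged mice, against 1061.5 and 1034 in failing cells (log2 0.56 ± 0.13 and 0.41 ± 0.18 within groups). Aged Tom+ MkPs were different, since there the log2 ratio of ADT counts was -0.01 ± 0.06 while that of GFP+ MkPs was 0.60 ± 0.18. When the MkPs of an age were ordered by ADT counts and split into 4 bins of like cell number, passing cells held more RNA in each bin at both ages, with log2 ratios of 0.23 to 0.59 in young and 0.17 to 0.62 in aged MkPs. The part of antibody depth in the gate calls was not tested beyond these values and the thinning to 300 counts.

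The share passing was higher in cells with more RNA. From the lowest to the highest of 4 bins of RNA UMIs, 19, 32, 53 and 78% of young MkPs passed, and 42.9, 55.1, 64.4 and 85.3% of aged MkPs. The bins of CD9 score were steeper in young cells, at 2, 26, 71 and 83%, and ran at 34.6, 59.3, 73.6 and 80.2% in aged cells. For CD61 the aged share levelled off, at 25.8, 65.7, 79.6 and 76.5%, and the young share went from 9 to 75%. For CD48 the share ran from 76.5 to 41.0% in aged and from 59 to 36% in young MkPs. These bins pool the cell groups of an age, and within cell groups CD48 did not separate young MkPs (0.011 ± 0.042, mixed signs).

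**Figure D5:**
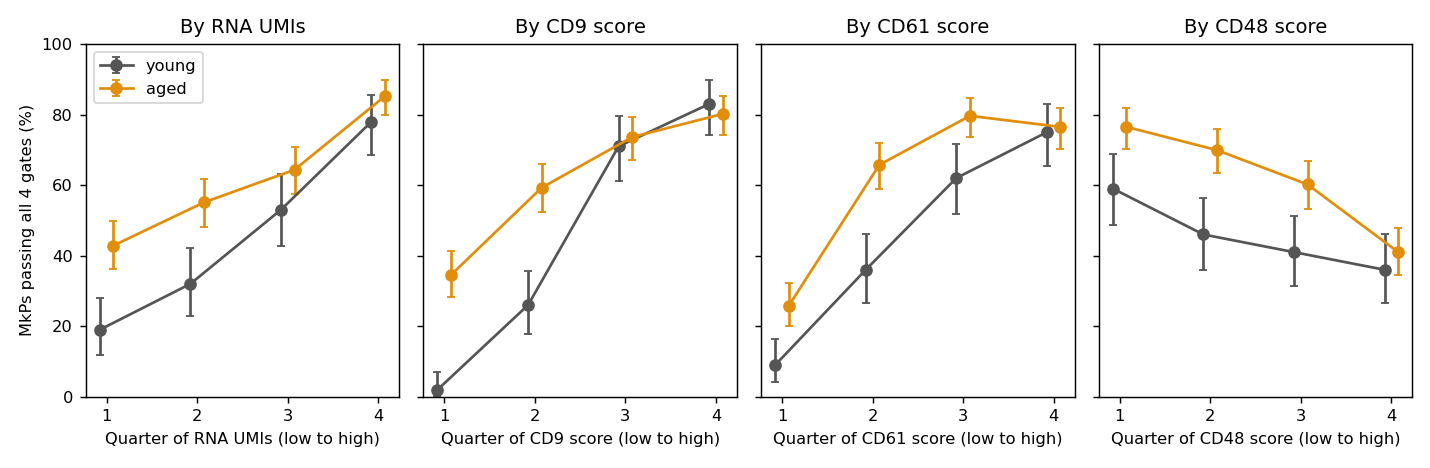
Share of MkPs passing all 4 gates, in percent, in 4 bins of like cell number by RNA UMIs, CD9, CD61 and CD48 score from low to high, for young and aged mice, with exact 95% counting intervals as bars. The share increases with RNA UMIs and CD9 at both ages and decreases with CD48, from 76.5 to 41.0% in aged MkPs. Cell groups are pooled, and within them the young CD48 difference had mixed signs.

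The CD9 and CD61 differences were also present within the bins of RNA content. Within the 4 bins of RNA UMIs, passing cells were higher in CD9 by 0.101 to 0.181 in aged and by 0.153 to 0.328 in young MkPs. For CD61 the difference was 0.047 to 0.272 in aged and 0.148 to 0.262 in young MkPs, and the smallest aged value came from the bin with the most RNA, which held 32 failing cells. CD48 was lower in passing aged cells in each of the 4 bins, by -0.095 to -0.168, and had no single sign in young cells.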

How the data were processed

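ADT counts of 35 antibodies in 22790 cells and a table of scores and annotations for 22602 of them were used. The authors deposited whole-number ADT counts per cell, and per the labels Cell Ranger and the mm10 build were used. The authors' normalized score is the count divided by the geometric mean of the cell (counts plus 1), after which ln(1 + value) was taken 2 times. It was rebuilt from the deposited counts to within 1e-08. The score is not a log2 value, so groups were compared as differences. The authors also deposited totals of RNA UMIs and genes per cell and the mitochondrial share as a percent. They state a minimum of 200 genes per cell, and the fewest in an MkP was 1187. The authors' protein-only call matched the rebuilt gates in 1266 of 1266 MkPs.

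Cells were split by age, gate result and cell group. Of the alternatives, other scalings, thinning, moved thresholds, leaving out a cell group, other minimums of cells, CD48 classes and pooled cells were planned. Unscaled counts, shares without the highest RNA bin or the CD41 gate, and RNA within ADT bins were added after seeing the data. Named proteins were CD48, CD9, CD61, CD105, CD54, CD38, CD62P, CD34 and the 5 largest differences per direction and age with 1 sign in all groups. Others named were chosen after their values were seen. The members, lists and gates were chosen with earlier results of these data known. No doublet caller was run here, 0 barcodes were shared among MkPs, and 52 barcodes occurred in more than 1 cell group over all cells. On simulated data 4 of 4 proteins shifted 2-fold kept the right sign, and 2 of 27 unshifted proteins had 1 direction. The largest mean difference of an unshifted protein was 0.051 and the smallest of a shifted protein 0.063, in absolute size. Shifts smaller than 2-fold were not simulated, so the smaller differences reported above were not covered. Python 3.11.15, numpy 2.4.6, pandas 2.3.3, scipy 1.17.1 and matplotlib 3.10.9 were used.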

Additional observations from a re-analysis of the deposited data

Results flagged for a closer look

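CD54 and CD135 had opposite signs at the 2 ages in every cell group used. CD54 was lower in passing young MkPs (-0.035 ± 0.025) and higher in passing aged MkPs (0.030 ± 0.017), so young minus aged was -0.0643. CD135 was lower in young (-0.020 ± 0.007) and higher in aged passing MkPs (0.018 ± 0.015), a difference of -0.0371. Neither difference between ages was tested. Among GFP+ MkPs alone the aged signs were mixed for both, with CD54 at -0.023 ± 0.023 in young and 0.010 ± 0.035 in aged cells and CD135 at -0.021 ± 0.012 and 0.018 ± 0.017, while Tom+ cells were 55.2% of passing and 32.1% of failing aged MkPs. The aged CD54 difference was lower in all groups under 2 scalings, and CD135 had a median of 0 counts in passing and failing cells.

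In 5 of 68 sets of 4 cell groups, 1 group stood apart from the other 3 by Dixon's criterion, and chance gives about 1 in 20. Young CD105 in B2 was 0.0516, below 0.0816 to 0.0857 in the other groups. Young CD86 in D2 was -0.111, against -0.0448 to -0.0346. Aged CD86 in A4 was -0.0109, against -0.0539 to -0.0468. Aged CD44 in C4 was 0.102, against -0.00163 to 0.0155, and aged CD127 in C4 was 0.0544, against -0.0197 to -0.0108. C4 held 19 failing MkPs, the fewest of the 8 groups. The aged failing cells include the GFP+ MkP without ADT counts, which scored 0 for every protein. In failing GFP+ MkPs the mean CD44 score was 1.36 in C4, against 1.53 to 1.55 in A4, B4 and D4. Whether that MkP lies in C4, and its weight in the C4 values, was not tested.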

How the results depend on the processing

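The share passing depended on the thresholds and on antibody depth. With thresholds 0.05 more permissive it was 54% in young and 68.6% in aged MkPs, with stricter ones 38.75 and 53.3%, after thinning to 300 ADT counts 19.5 and 44.8%, without the highest bin of RNA UMIs 34.7 and 54.1%, and without the CD41 gate 74 and 75.5%. The mean over 6 aged cell groups was 51.5%. Leaving out 1 of the larger cell groups (A2 to D2 in young, A4 to D4 in aged mice) gave 41.9 to 51.3% in young, the highest without A2, and 59.0 to 61.7% in aged MkPs. These ranges do not cover leaving out the groups with few MkPs, such as A3 and B3. The number of proteins with 1 direction was 26 (log2 counts per 1000) and 9 (unscaled) against 15 in young, and 6 in CD48- cells against 14 in aged MkPs. Leaving out a cell group gave 17 to 18 in young and 15 to 22 in aged MkPs, the highest without D4. Those counts rest on fewer groups, over which a shared sign is easier to keep. The mean difference changed sign for CD105 (-0.17), CD38 (-0.33) and CD44 (-0.24) in young and CD54 (-0.14) in aged MkPs as log2 counts per 1000, and young CD38 (-0.00789) and aged CD54 (-0.0285) after thinning, where young CD38, like young CD105 per 1000, was mixed between groups. Pooling cells gave log2 ratios of 0.72 for young RNA UMIs, 0.30 for young genes and 0.22 for aged ADT counts. The last was 0.60 in GFP+ cells alone, and young RNA UMIs gave 0.43 within ADT bins. Genes per cell averaged near 0 over RNA bins of both signs (-0.0012 young, -0.0022 aged). The cause of these changes was not tested. Among shares, counts of proteins and depths, 68 alternative values stayed near the main value, 21 moved and 2 changed sign, and for single proteins 286 stayed, 31 moved and 6 changed sign. No paired analysis was possible because no cell group could be tied to a replicate number of the libraries, and passing and failing cells were compared within cell groups instead. With single-digit counts for many proteins, small score differences are limited by depth.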
